A study of Arabidopsis thaliana with 12 samples.

Results

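Chloroplast thylakoids are the membranes on which photosynthesis runs, and they enclose an inner space, the lumen. Proteins made outside the organelle reach these compartments through plastid versions of bacterial export systems. A Sec translocase threads unfolded proteins into or across the membrane, and other routes carry folded proteins to the lumen or place light-harvesting proteins in the membrane. The lumen holds plastocyanin, extrinsic photosystem proteins, proteases, many immunophilins (peptidyl-prolyl isomerases that can assist folding) and relatives of the photosystem II protein PsbP. Genes for such proteins outside the photosystems, 7 of 3438 genes or features measured, are described here. They were taken by name as genes with an array feature of their own. SECE1 encodes the small SecE subunit of the thylakoid Sec translocase. CCB3 encodes a factor that helps attach a heme covalently to cytochrome b6. AT1G74070 encodes a cyclophilin-type and AT5G13410 an FKBP-type immunophilin, AT1G76450 a PsbP-domain protein, and AT4G24930 and AT5G52970 small lumen proteins named after their mass.

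The arrays received total RNA from 6 samples of the Arabidopsis thaliana mutant pam46 and 6 wild-type (WT) samples, both of ecotype Columbia 0. The labels describe pam46 by an alteration of photosynthesis and give the affected protein as unknown, so no targeted gene could be examined as a check of the labels. The sources used here name no tissue, growth condition, allele or number of plants. Whether the 6 samples of a group were separate plants is not stated, so the p-values rest on a spread that may be technical only. With no tissue named, fewer cells of a type and less RNA per cell could not be told apart in any value below.

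Values are array intensities on a linear scale from 0 to 100. Sums per sample were alike (3290 to 3644), while medians were lower in pam46 samples (0.199 to 0.226) than in WT samples (0.296 to 0.341). From 196 to 317 features were listed at 0 in pam46 samples and from 133 to 179 in WT samples. For the tests the samples were brought to one distribution by quantile normalization. Values under 0.0278, the 5th percentile of the positive ones, were then raised to that floor (-5.17 on the log2 scale). Fold changes are pam46 minus WT on this log2 scale, with adjusted p-values from limma (Benjamini-Hochberg over all 3438), and a gene was called at an adjusted p under 0.05. Samples with consecutive numbers (1 and 2, 3 and 4, 5 and 6) deviated together, so a fit on their averages, 3 against 3, is given beside each called gene.

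Of the 7 genes, 4 were called: AT4G24930 and AT1G74070 were higher in pam46, and SECE1 and AT1G76450 were lower. The other 3, CCB3, AT5G13410 and AT5G52970, lay at or near 0 in most samples. In the same fit 41.1% of all genes or features were called, 19.5% as higher and 21.6% as lower, so 4 of 7 stands against a background that is itself large. With consecutive numbers averaged, 3 of the 7 were called (SECE1, AT4G24930 and AT1G74070), against 17.1% of all. The median log2 fold change of the 7 was 0.18, against 0 for all genes or features, and the median of its absolute size was 0.93, against 0.55. The 0.18 is the value of AT5G52970, at the floor in 11 of 12 samples. The 0.93 is that of AT1G74070, whose size rests on the scaling. These medians therefore say little about the 7 as a set. The 4 called genes did not share a direction.

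**Figure D1:**
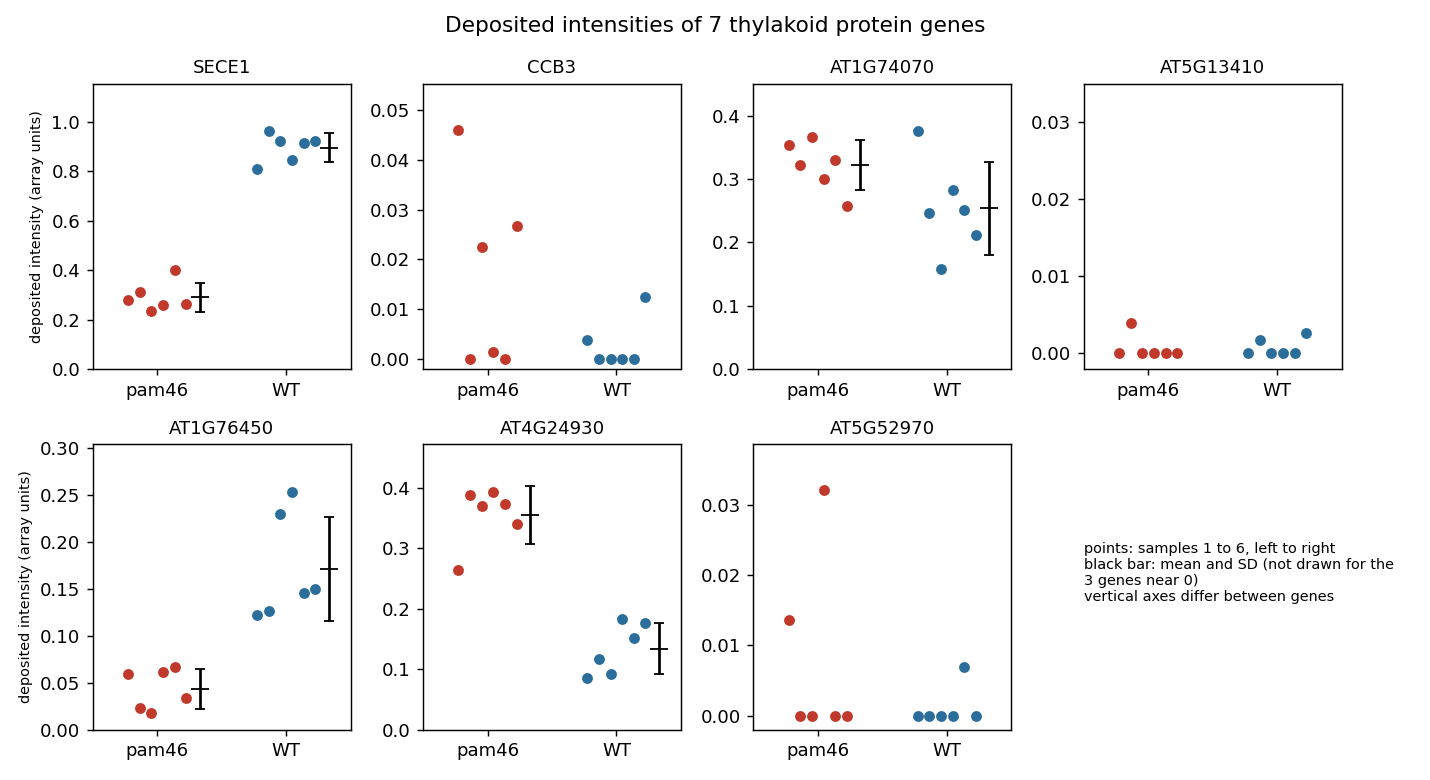
Deposited intensity (array units, linear) of each of the 7 genes in 6 pam46 samples (red, left) and 6 WT samples (blue, right), in the order of their numbers, with mean and SD in black except for the 3 genes near 0. SECE1, AT1G76450 and AT4G24930 separate the groups, AT1G74070 overlaps, and CCB3, AT5G13410 and AT5G52970 stay at 0.0461 or below.

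SECE1 (AT4G14870), the translocase subunit, was lower in pam46. Its deposited intensity ran from 0.233 to 0.399 with a median of 0.272 in pam46 samples, against 0.810 to 0.963 with a median of 0.919 in WT samples. The highest pam46 value, in sample 5, was well below the lowest WT value, so the groups did not overlap. Means were 0.291 ± 0.0587 in pam46 and 0.896 ± 0.0571 in WT (SD, n = 6 each). On the normalized scale SECE1 fell by 1.29 (± 0.11 SE, 2.45-fold lower, adjusted p = 5.85e-06), with a 95% interval from -1.52 to -1.06. The fit on averages also called it (adjusted p = 0.00752). On the normalized scale, where SECE1 and AT4G24930 were the 2 of 7 without overlap, 23.2% of all genes or features had none, 12.5% in the lower direction.

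The change of SECE1 was of similar size throughout the samples. Between samples of the same number it ran from -1.59 in number 3 to -0.91 in number 5. It was lower in 6 of 6, which follows from groups without overlap. Averaged within consecutive numbers it was -1.20 for 1 and 2, -1.45 for 3 and 4, and -1.22 for 5 and 6. Its log2 values had an SD of 0.22 in pam46 and 0.12 in WT, against medians of 0.31 and 0.36 over the 2632 features that were never at the floor. SECE1 was called as lower in each of 27 other settings tried, with log2 fold changes from -1.64 on the values as deposited to -1.08 with equal medians.

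CCB3 (AT5G36120), the cytochrome b6 maturation factor, was near 0. In pam46 its deposited intensity was 0.0461 in sample 1, 0.0268 in sample 6, 0.0224 in sample 3, 0.00149 in sample 4 and listed at 0 in samples 2 and 5. In WT it was 0.0125 in sample 6, 0.00380 in sample 1 and listed at 0 in the other 4. After normalization all 6 WT samples and 3 of 6 pam46 samples stood at the floor. The fitted difference of 0.39 ± 0.22 (SE) did not pass (adjusted p = 0.177, 95% interval -0.09 to 0.86), and its size moved with the floor, the scaling and single samples. It was 0.21 without pam46 sample 3, 0.24 without pam46 sample 1, and 0.09 to 0.13 with equal sums, equal medians or the deposited scale, with no call. A floor at the 1st percentile gave 2.94, which passed (adjusted p = 0.0441), and a floor at the 20th percentile left every sample at the floor.

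AT1G74070, the cyclophilin-type immunophilin gene, was called as higher in pam46, with a size that rests on the scaling. Its deposited intensity ran from 0.257 to 0.367 with a median of 0.326 in pam46 samples, against 0.157 to 0.376 with a median of 0.248 in WT samples. The groups overlapped, since WT sample 1 was the highest of all 12. After normalization it was higher by 0.93 ± 0.20 (SE, n = 6 per group, adjusted p = 0.00311, 95% interval 0.49 to 1.37). On the deposited scale the log2 fold change was 0.38 and under equal sums 0.40, neither called (adjusted p = 0.105 and 0.0755), while with equal medians it was 0.94 and called. The median of all genes or features shifted by -0.36 on the deposited scale and by -0.34 under equal sums.

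In all 6 numbers AT1G74070 was higher in pam46, between 0.36 in number 1 and 1.74 in number 3. Within consecutive numbers the difference was 0.56 for 1 and 2, 1.16 for 3 and 4, and 1.07 for 5 and 6. The averaged fit called it (adjusted p = 0.0418). A random block for consecutive numbers ended the call (adjusted p = 0.0559), as did averaging with the replicate block (adjusted p = 0.05003). WT samples were the more variable, with an SD of log2 values of 0.47, against 0.18 in pam46.

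AT5G13410, the FKBP-type immunophilin gene, gave no measurable level. In pam46 it was listed at 0 in 5 samples and at 0.00402 in sample 2. In WT it was listed at 0 in 4 samples, at 0.00262 in sample 6 and at 0.00177 in sample 2. All 12 values lay at the floor after normalization, as for 1.75% of all genes or features, so no fold change is given.

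AT1G76450, the PsbP-domain protein gene, was lower in pam46 in the fit on 12 samples. Deposited intensity ran from 0.0178 to 0.0666 with a median of 0.0463 in pam46, against 0.122 to 0.253 with a median of 0.147 in WT. The groups did not overlap on this scale, as for 23.6% of all genes or features in the lower direction, with a mean of 0.0436 ± 0.0213 in pam46 and 0.171 ± 0.0558 in WT (SD, n = 6 each). On the normalized scale they did, the highest pam46 sample being at -3.41 and the lowest WT sample at -3.55. There AT1G76450 fell by 1.15 (± 0.31 SE, 2.21-fold lower, adjusted p = 0.0117), with a 95% interval from -1.83 to -0.47. On the values as deposited it was at -1.89 (adjusted p = 0.000218). Its lowest pam46 sample on the normalized scale, at -4.74, stood near the floor of -5.17. A filter on dim features left the gene out.

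The size of this fall varied between samples. In number 5 the difference was -0.10 and in number 3 it was -2.02, lower in 6 of 6 numbers. WT samples 3 and 4, at 0.229 and 0.253, stood above the other WT samples, of which the highest was at 0.149. Within consecutive numbers the differences were -1.16 for 1 and 2, -1.62 for 3 and 4, and -0.66 for 5 and 6. The call ended with averaging (adjusted p = 0.0736), with a random block for consecutive numbers (0.113), with averaging and the replicate block (0.0575), without numbers 1 and 2 (0.0727) or 3 and 4 (0.0566), and when the floor was moved to the 20th percentile (-0.42, 0.103). AT1G76450 was called in 20 of 26 settings, and negative in each.

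**Figure D2:**
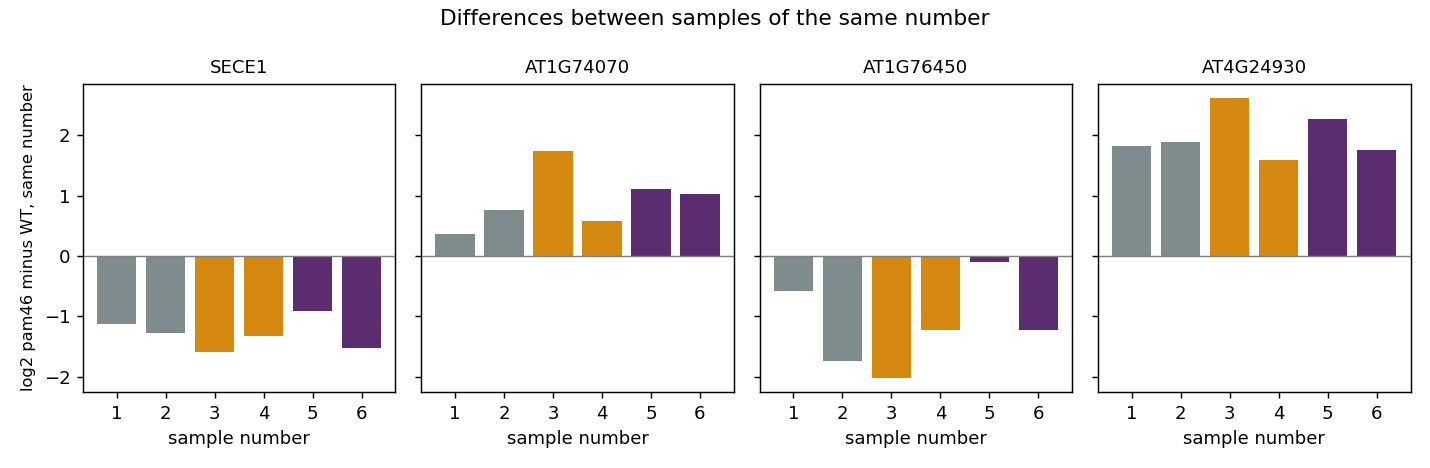
Log2 normalized intensity of the pam46 sample minus that of the WT sample of the same number, for the 4 called genes, with bars of one colour for consecutive numbers. Each gene has 6 bars of one sign, from -1.59 to -0.91 for SECE1 and from -2.02 to -0.10 for AT1G76450. For SECE1 and AT4G24930 this follows from groups without overlap. The share of all genes or features with 6 bars of one sign was not computed.

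AT4G24930, of the 2 small lumen protein genes, had the largest fold change of the 7. Deposited intensity ran from 0.264 to 0.393 with a median of 0.371 in pam46 samples, against 0.0849 to 0.183 with a median of 0.134 in WT samples. The groups did not overlap, and sample 1 was the lowest in both groups. Means were 0.354 ± 0.0480 in pam46 and 0.134 ± 0.0424 in WT (SD, n = 6 each). On the normalized scale it rose by 1.99 ± 0.18 (SE, 3.97-fold higher, adjusted p = 1.02e-05), with a 95% interval from 1.60 to 2.38, and the averaged fit called it as well (adjusted p = 0.00308). On the normalized scale, where the groups did not overlap either, 10.7% of all genes or features had no overlap in the higher direction.

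Differences for AT4G24930 between samples of the same number ran from 1.59 in number 4 to 2.62 in number 3. Within consecutive numbers they were 1.85, 2.11 and 2.01, closer together than for AT1G76450. The gene was called as higher in each of 27 other settings, with log2 fold changes from 1.45 on the values as deposited to 2.13 without WT sample 4.

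AT5G52970, the other small lumen protein gene, was near 0. In pam46 it was at 0.0322 in sample 4 and 0.0136 in sample 1 and listed at 0 in the other 4 samples. In WT it was at 0.00697 in sample 5 and listed at 0 in the other 5. After normalization only pam46 sample 4 stood above the floor. The fitted difference of 0.18 ± 0.18 (SE) did not pass (adjusted p = 0.455, 95% interval -0.21 to 0.58).

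Together, CCB3, AT5G13410 and AT5G52970 were at the floor in 9, 12 and 11 of 12 samples, and the share of all genes or features at the floor in 9 or more was 5.44%. For these 3 an intensity this low bounds what can be seen, and it does not show that the transcripts are absent or alike in pam46 and WT.

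**Figure D3:**
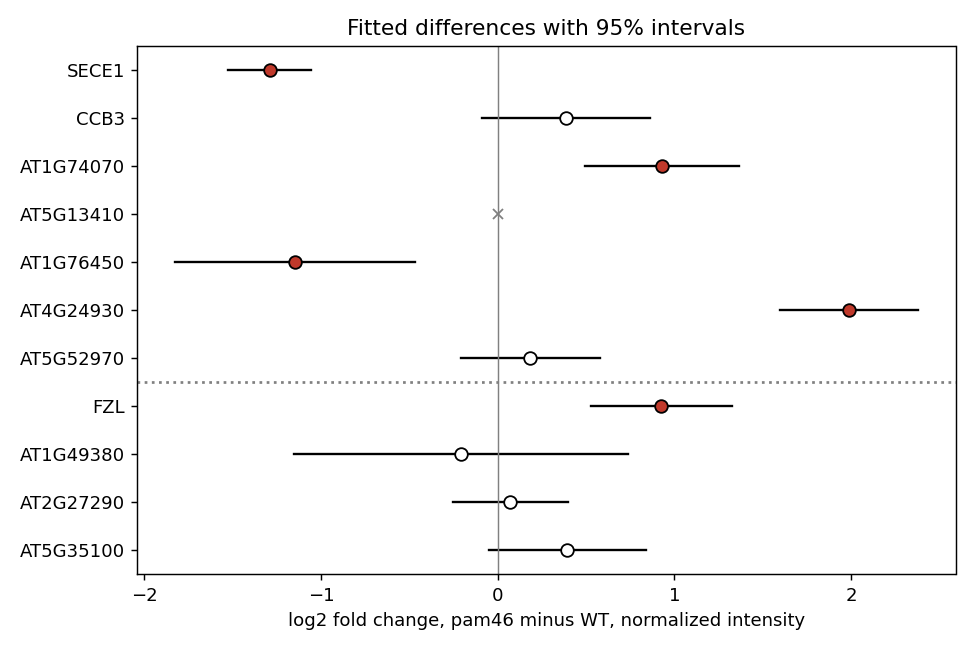
Log2 fold change, pam46 minus WT, with 95% intervals for the 7 genes (above the dotted line) and 4 related genes (below it). Filled points were called, open points were not, and the cross marks AT5G13410, at the floor in all 12 samples. SECE1 (-1.29) and AT4G24930 (1.99) have intervals farthest from 0.

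Lists of 74 genes of thylakoid protein targeting, the cytochrome b6f complex, lumen proteins and lumen immunophilins held 11 genes with a feature of their own, the 7 and 4 others. Among the 11, 3 were higher, 2 lower and 6 not called, a share of calls close to the 41.1% of all genes or features (19.5% higher, 21.6% lower). FZL, a dynamin-like GTPase that shapes thylakoid membranes, was called as higher. Its deposited intensity ran from 1.10 to 1.72 with a median of 1.25 in pam46 samples, against 0.585 to 0.986 with a median of 0.779 in WT samples, without overlap. FZL had no overlap on the normalized scale either, as for 10.7% of all genes or features in the higher direction. The log2 fold change was 0.92 ± 0.18 (SE, n = 6 per group, adjusted p = 0.00187), and it was called in 26 of 27 settings. The call ended with averaging (adjusted p = 0.0745) but not with averaging plus the replicate block (0.0398). FZL and SECE1, the 2 measured genes of the targeting and insertion list of 19 genes, were thus called in opposite directions. FZL, on the list although it shapes membranes, is not a part of the translocase, for which SECE1 alone was measured. The opposite calls are therefore no result about targeting or insertion.

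The other 3 related genes did not pass. AT1G49380, for a factor of the heme attachment to c-type cytochromes, was at -0.21 ± 0.43 (SE, adjusted p = 0.744, 95% interval -1.15 to 0.74). It was at -0.79 on the deposited scale and -0.76 under equal sums, not called in either, and was called as lower with the median deviation of the 10 features nearest in number subtracted (-0.69, adjusted p = 0.0405). AT2G27290, for an assembly factor of the cytochrome b6f complex, was the brightest of the 11 features, with medians of 35.9 in pam46 and 30.3 in WT. It was at 0.07 ± 0.15 (adjusted p = 0.748, 95% interval -0.26 to 0.40), but with equal medians at 0.88 and called (adjusted p = 0.000146). On the deposited scale it was at 0.32 and under equal sums at 0.34, neither called (adjusted p = 0.103 and 0.0668). Quantile normalization gives equal ranks the same value, and pam46 and WT were equal in numbers 3, 4 and 6. The 0.07 therefore does not show that the levels were alike. AT5G35100, for a cyclophilin-type protein, was at 0.39 ± 0.20 (adjusted p = 0.144, 95% interval -0.05 to 0.84), and turned sign on the deposited scale (-0.24) and under equal sums (-0.21). The 3 measured genes of the cytochrome b6f list, CCB3 among them, were all without a call.

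For the 4 genes above the floor, the gene with the most similar profile was sought among 669 other features of 1 gene, by Pearson r of log2 normalized intensity over the 12 samples. AT2G37510 was nearest to SECE1 (r = 0.962), AT2G30100 to AT4G24930 (r = 0.963), AT1G78620 to AT1G74070 (r = 0.896) and AT1G04420 to AT1G76450 (r = 0.892). These samples share the 2 groups and the pairs of consecutive numbers. On deviations from the group means r was 0.0649 for AT2G37510 with SECE1 and 0.254 for AT2G30100 with AT4G24930, so these likenesses lay mainly in the difference between groups. It was 0.638 for AT1G78620 with AT1G74070 and 0.737 for AT1G04420 with AT1G76450. Each partner was picked as the highest of 669 in these same 12 samples, which raises such values. They are no separate evidence of likeness within groups.

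Features near in number were examined, since bright ones could affect dim ones if they lie close on the array, whose layout is not given. Among the 10 nearest in number, the brightest averaged 2.45 for SECE1 (own mean 0.594), 1.22 for AT1G74070 (0.288), 2.12 for AT1G76450 (0.107) and 16.2 for AT4G24930 (0.244). The brightest one near AT1G76450, 1 number away, differed by 2.49 on the log2 scale, opposite in sign to the gene itself. That near SECE1 differed by 0.73, also opposite in sign to the gene. That near AT1G74070 differed by 2.54 and that near AT4G24930 by 0.60, in the same direction as the genes. The part of these bright features in the results was not tested. Shifts common to nearby features are a separate matter, and with the median deviation of the 10 nearest features subtracted in each sample the genes were called at -1.24 for SECE1, 0.71 for AT1G74070, -1.11 for AT1G76450 and 1.99 for AT4G24930. A median over 10 hardly registers a single bright feature.

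**Figure D4:**
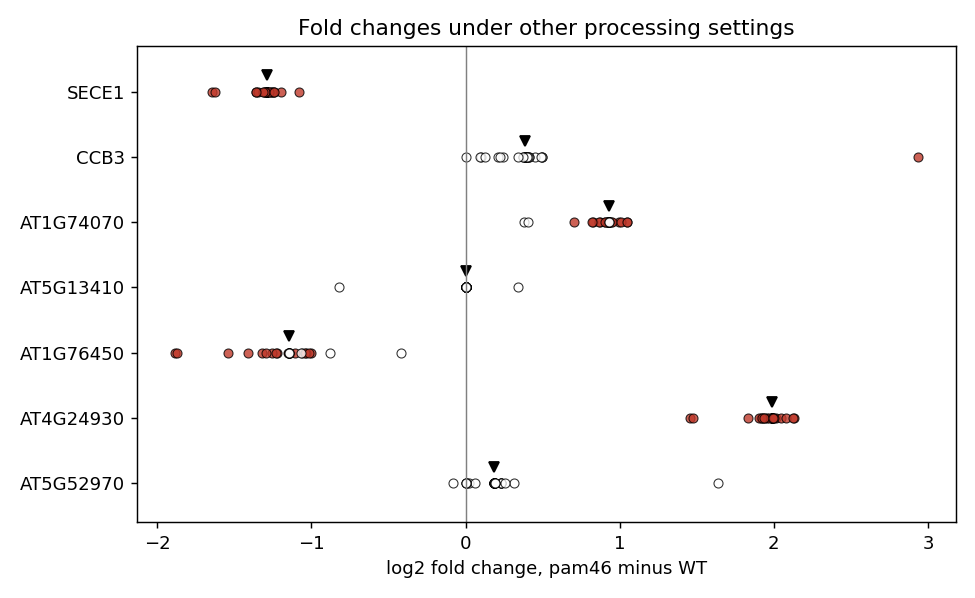
Log2 fold change, pam46 minus WT, of the 7 genes under each other setting tried (circles, filled where called) and in the fit described here (black triangles). SECE1 and AT4G24930 were called in each setting, AT1G74070 in 23 of 27, AT1G76450 in 20 of 26 and CCB3 in 1 of 26.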

How the data were processed

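The series' value table holds array intensities, deposited on a linear scale between 0 and 100, per sample. No step before deposit is named in the sources used here. Gene names came from the platform annotation, which can be old. It gives 1 gene for 692 of 3439 features, several for 870 and none for 1877, and none was named from a feature with several. Through RefSeq's gene table (TAIR10.1), used for names alone, 690 were matched. The brighter feature was kept where a gene had 2, which left 3438. All were quantile-normalized, floored at the 5th percentile of positive values, log2-transformed and tested two-sided with lmFit and eBayes of limma 3.58.1 (R 4.3.3). The script was tested on simulated data with independent samples, so that test does not cover samples that deviate together.

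The members and lists were chosen with earlier results of these data known. Named genes are the 7 members, every list gene with a feature of its own, and for each member above the floor the feature with the highest r. Before calls were compared, deviations from group means were correlated across features. Samples of the same number in pam46 and WT correlated at 0.240 to 0.566 in 6 pairs, above the 0.1 required. The numbers come from the labels. Unlike numbers were not compared between the groups, so these values cannot show that samples are paired by number. The main fit used no pairing. Consecutive numbers within a group correlated at 0.259 to 0.670. Alternatives covered scaling, floor, a dim filter, blocks, averaging, the prior and left-out samples. Precision is limited by how many arrays there are.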

Additional observations from a re-analysis of the deposited data

Results flagged for a closer look

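In 18 groups of 6 samples with any spread (7 members and 4 related genes), the gap of the highest or lowest sample to its nearest neighbour was set against the group's range. It exceeded Dixon's 95% critical value in 2 groups, and chance alone marks about 1 in 20. On the log2 normalized scale SECE1 stood at -1.12 in pam46 sample 5 and at -1.49 in the next highest pam46 sample, still below every WT sample. For AT5G52970, pam46 sample 4 was at -4.07 and the other 5 were at the floor of -5.17, where any sample above the floor is marked.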

How the results depend on the processing

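Of 27 settings, 26 could be run for CCB3, AT5G13410, AT1G76450 and AT5G52970, which the dim filter left out. SECE1 and AT4G24930 kept direction and call in all 27, and leaving out any 1 sample changed no call of the 7. AT1G74070 lost its call unnormalized (0.38), under equal sums (0.40), with a random block for consecutive numbers (0.93) and with averaging plus the replicate block (0.93). AT1G76450 lost it with averaging, averaging plus the replicate block and the random block (-1.15 in all 3), without numbers 1 and 2 (-1.07) or 3 and 4 (-0.88) and with the floor at the 20th percentile (-0.42). CCB3 gained a call with the floor at the 1st percentile (2.94). The replicate block on 12 samples changed no call of the 7. Neighbour correction, chosen after seeing the data, put AT5G52970 at -0.084 and gave AT1G49380 a call (-0.69). Among related genes, signs turned for AT1G49380 without pam46 sample 2 (0.063, range -0.41 to 0.063 with 1 sample left out), AT2G27290 without pam46 sample 5 (-0.0145, range -0.0145 to 0.14) and AT5G35100 unnormalized (-0.24) and under equal sums (-0.21). Of all 3438, 1413 were called, 587 with averaging, 693 with averaging plus the replicate block and 922 with the random block, against 1658 with the replicate block on 12 samples. The averaged fits have fewer samples. The random block kept all 12 samples and was set within each group, with an estimated correlation of 0.614 within consecutive numbers. The main fit treats the samples as independent. Neither fit models deviations that pam46 and WT samples of the same number share. Directions were 669 higher and 744 lower, against 373 and 1301 unnormalized, 382 and 1274 under equal sums, and 899 and 642 under equal medians. Other causes were not tested.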
